A study of Mus musculus with 6 samples.

Results

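The genes described here are 45 genes of DNA replication and mitosis, taken by symbol from a fixed list, among 23337 genes in the count table. They were grouped by role into the D-type cyclins, the E-type cyclins, the E2F activators, origin licensing, helicase activation and the replication fork, deoxynucleotide supply, the mitotic cyclins with Cdk1, the mitotic kinases and checkpoint, and the spindle, centromere and chromosome. All 45 passed the filter on low counts and were tested. RNA had been sequenced from sinusoidal endothelial cells, the fenestrated lining of the hepatic capillaries. Primary mouse cells had been captured on immunomagnetic beads, cultured in medium with serum on collagen IV and then deprived of serum. The control group (replicates 2, 3 and 4) stayed unstretched, and the stretch group (replicates 1, 2 and 4) received 4% cyclic stretch at 1 Hz on a Flexcell device. The sources used here do not give the strain, the age or the duration of the stretch. No label states that the libraries of a group came from separate animals or cultures, so p-values measure the spread between these libraries, which may be technical.

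Cells enter division from G1, where D-type cyclins bind Cdk4 or Cdk6 and the kinase phosphorylates the retinoblastoma (pocket) proteins. This releases E2F factors, which switch on E-type cyclins and the genes that license and copy DNA. A later programme, driven by factors that bind so-called CHR elements, supplies the mitotic cyclins, kinases and spindle proteins. In adult liver, sinusoidal endothelial cells are mostly quiescent. The question asked of these data was how G1 cyclins and the downstream replication and mitosis genes differed between stretched and static cells.

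Control libraries held 48948948 to 57923937 counts over all genes, and stretch libraries 58503669 to 68489956. Summed levels of 8 pan-endothelial markers were 7355 to 8218 CPM in control and 7167 to 7905 CPM in stretch libraries (CPM, counts relative to the TMM-scaled library size), and 5 of them (Kdr, Tek, Tie1, Egfl7 and Erg) were lower after stretch and 0 higher. The 8 sinusoidal markers summed to 7600 to 8614 and 5710 to 6631 CPM, and 6 of them were lower after stretch. Over all genes tested, 22.6% were lower and 21.4% higher. Markers of other cells were much scarcer, and the sums of hepatocyte, macrophage and cholangiocyte markers were higher in the stretch libraries. Hepatocyte markers (7 of 9 higher) summed to 30.1 to 67.0 and 87.6 to 454 CPM, with the highest value in stretch replicate 1. Macrophage markers (5 of 6 tested higher, of 8) summed to 67.3 to 77.4 and 79.3 to 114 CPM, and cholangiocyte markers (3 of 5 higher) to 80.9 to 106.9 and 141 to 166.5 CPM. Most of the macrophage sum came from Cd68 (mean 66.9 and 81.9 CPM), the tested marker that did not pass (edgeR adjusted p = 0.0549). Stellate cell and fibroblast markers (1 of 8 tested higher, of 9) summed to 62.0 to 78.7 and 51.2 to 84.35 CPM, which overlap. Lymphocyte markers (0 of 2 tested called, of 8) summed to 0.455 to 0.999 and 1.19 to 1.775 CPM, with Cd3d, Cd2, Ms4a1 and Nkg7 at 0 counts. The part of these other cells in the results below was not tested, and in bulk RNA fewer dividing cells and less RNA per cell cannot be told apart.

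Of the 45 genes, 3 rose after stretch, 11 fell and 31 did not pass (edgeR quasi-likelihood test, Benjamini-Hochberg adjusted p under 0.05 over 14222 genes). The genes that rose were the cyclins Ccnd1 and Ccnd2 and the sliding clamp Pcna. Those that fell were Ccnd3, E2f1, Orc6, Mcm4, Mcm5, Mcm7, Gins2, Rfc3, Rrm1, Bub1b and Mki67. Over all genes tested 21.4% rose and 22.6% fell, against 6.67% and 24.4% of these genes, so the share that fell was near that of all genes and the share that rose was lower. With library sizes alone as scaling, 32.7% of all calls were increases against 48.6% with TMM, and 3 of the 45 genes rose and 15 fell. Of all 14222 genes tested, 2091 rose and 4299 fell with library sizes alone. That scaling moved the median log2 fold change of all genes from -0.01 to -0.11. Group ranges did not overlap for 4 of the 45 genes with stretch higher (8.89%) and for 17 with stretch lower (37.8%), against 26.7% and 29.2% of all genes. Estimates below 0 were found for 33 of the 38 replication and mitosis genes (86.8%), with a median log2 fold change of -0.28, against 51.7% of all genes tested and a median of -0.01. Without stretch replicate 4, in which mitosis genes were low, 27 of the 38 had estimates below 0 and the median was -0.17. The changes were small for most: 4 of the 45 genes passed against a minimum change of 1.2-fold, namely Ccnd1, Ccnd2, Ccnd3 and Mki67. Of all 14222 genes tested, 2537 passed that minimum.

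**Figure D1:**
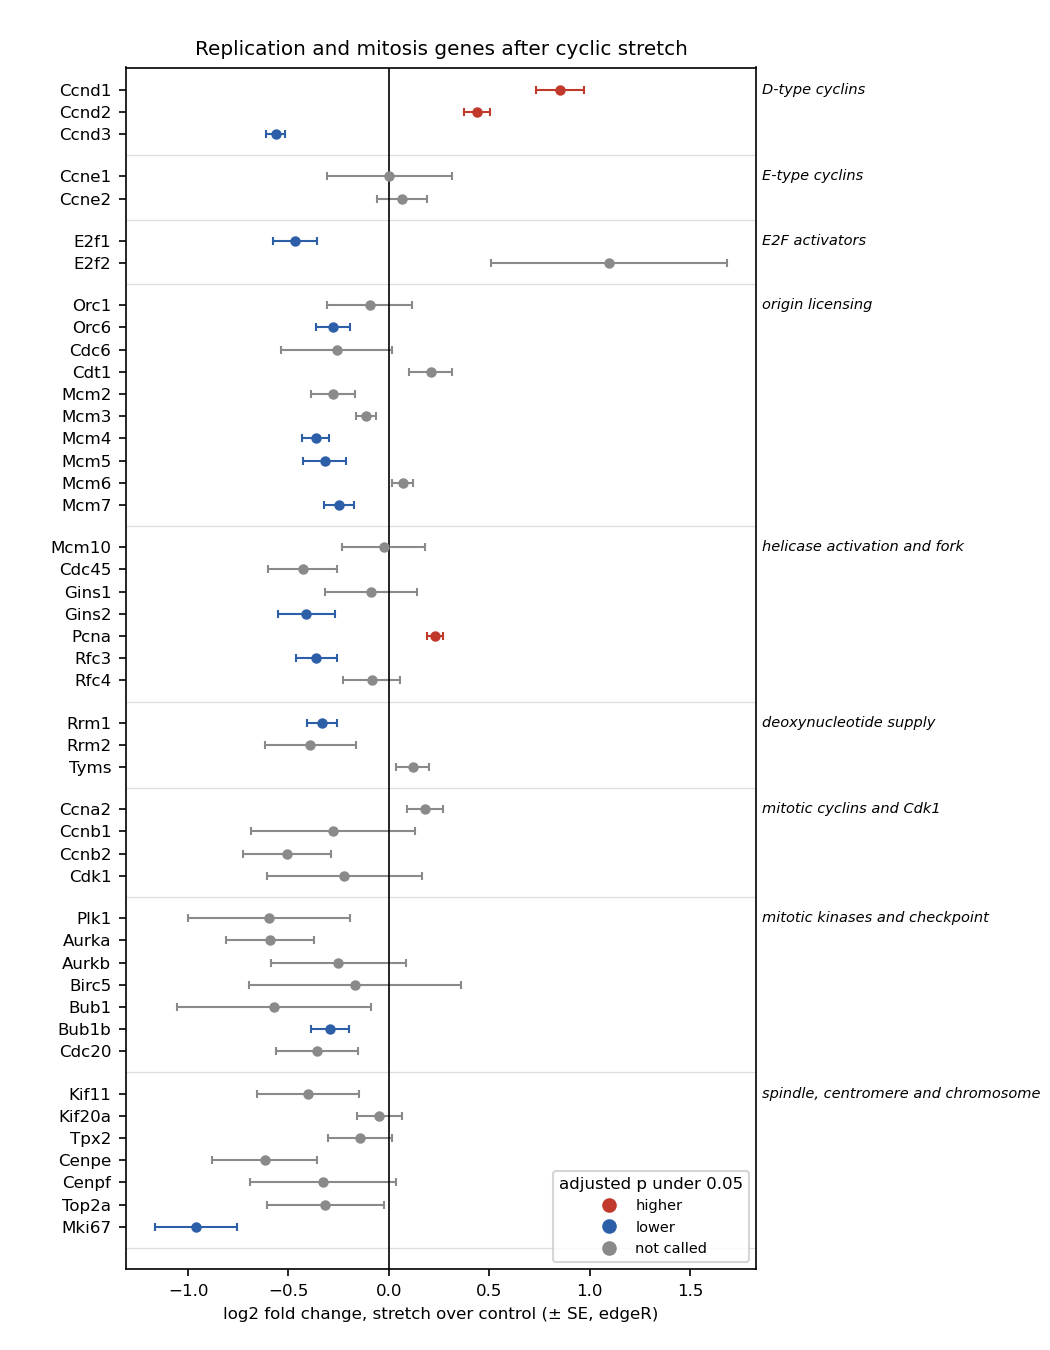
Log2 fold change of stretch over control with its SE (horizontal axis, edgeR) for the 45 genes by role, coloured by whether the adjusted p was under 0.05. Ccnd1 and Ccnd2 lie to the right of 0, Ccnd3 to the left, and 33 of the 38 replication and mitosis genes have estimates below 0.

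The D-type cyclins, which couple growth signals to the G1 kinases, went in opposite directions. Ccnd1 (chromosome 7, 144929931 to 144939925, GRCm38) stood at 38.5, 48.7 and 40.9 CPM in the control libraries (replicates 2, 3 and 4, the order kept below) and at 90.6, 70.0 and 70.2 CPM in the stretch libraries (replicates 1, 2 and 4). Every stretch library was above every control library, and the fold change was 1.80 (log2 0.85 ± 0.12 SE, edgeR adjusted p = 0.000744). Stretch replicate 1 was highest, and its removal left a log2 fold change of 0.72. Ccnd2 (chromosome 6, 127125709 to 127151048) measured 91.9, 102 and 105 CPM in control and 143, 128 and 134 CPM in stretch libraries. Its ranges also stayed apart, with a 1.36-fold increase (log2 0.44 ± 0.06, edgeR adjusted p = 0.000946). Ccnd3 (chromosome 17, 47505051 to 47599688) went the other way, from 67.0, 62.1 and 65.9 CPM to 43.7, 45.1 and 43.0 CPM. The stretch libraries of Ccnd3 (SD 1.06 CPM) all lay below the controls, a 1.48-fold decrease (log2 -0.56 ± 0.05, edgeR adjusted p = 9.04e-05). The 3 cyclins passed with the same sign under each of the 17 alternative settings.

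On the authors' length-normalised RPKM scale, Ccnd3 was the most abundant D-type cyclin in each control library, with 27.4 ± 0.98 RPKM against 16.5 ± 1.41 for Ccnd2 and 10.7 ± 1.43 for Ccnd1 (SD, n = 3). In stretch libraries Ccnd2 led with 21.0 ± 0.90 RPKM, and Ccnd1 and Ccnd3 were at 18.2 ± 2.60 and 17.5 ± 0.75 RPKM, whose ranges overlapped. Ccnd3 thus made up 47.34% to 53.2% of the summed D-type RPKM in control and 28.42% to 32.95% in stretch libraries. Ccnd1 made up 18.19% to 22.12% and 30.41% to 35.05%. CPM do not correct for gene length. On that scale the summed D-type level was 197 to 213 CPM in control and 243 to 278 CPM in stretch libraries. Summed as RPKM instead, the control and stretch libraries overlapped. A stretch of 358 bases of the Ccnd3 locus overlaps Bysl, which rose (log2 fold change 0.41) while Ccnd3 fell, and the reference name table lists a pseudogene, Ccnd3-ps. Ccnd2 shares 1660 bases with 9330179D12Rik, which was scarce (0.235 CPM in control).

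**Figure D2:**
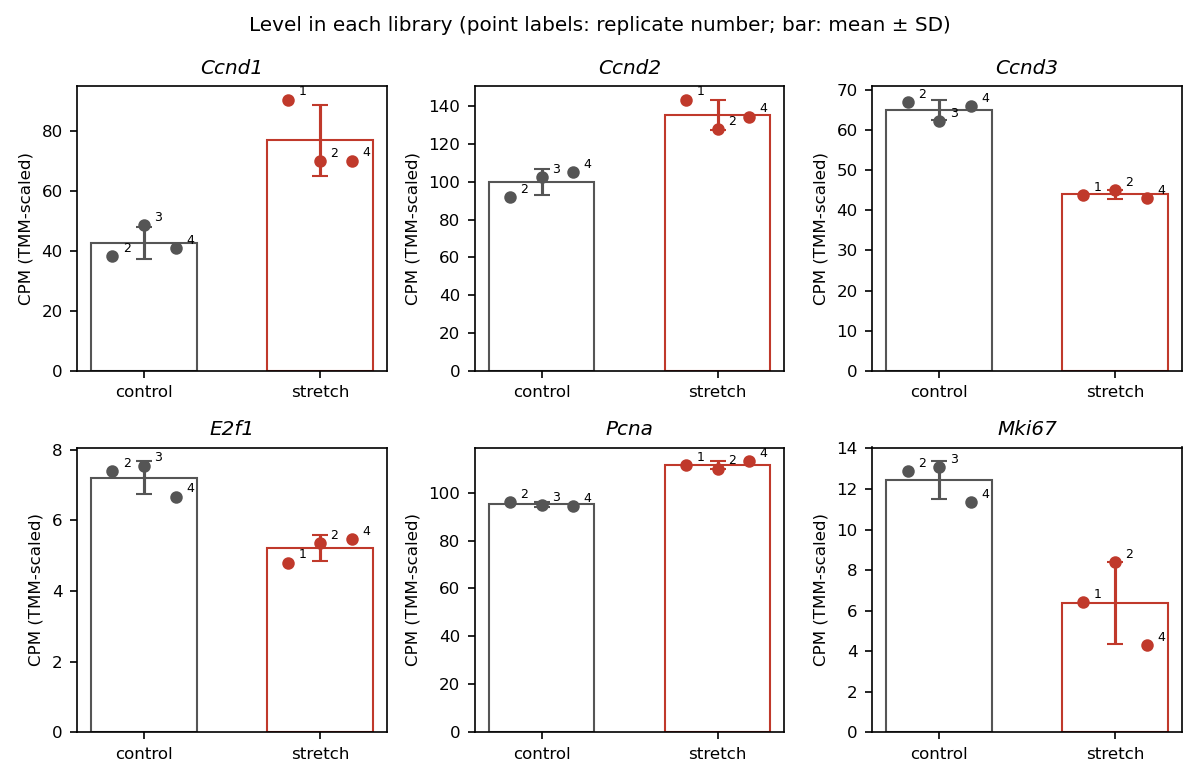
CPM (vertical axis, TMM-scaled, from 0) of 6 genes in each library, with points labelled by replicate number and bars for the mean ± SD of 3 control and 3 stretch libraries. In each of the 6 panels the 3 stretch libraries lie on one side of the 3 control libraries.

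The E-type cyclins, which activate Cdk2 at the start of S phase, showed no detectable change. Ccne1 was scarce, at 0.762, 1.17 and 1.44 CPM in control and 1.31, 0.840 and 1.23 CPM in stretch libraries, from 45 to 77 counts per library. The groups overlapped, and the 95% interval of the log2 fold change ran from -0.71 to 0.71 (estimate 0.00, edgeR adjusted p = 0.996). Ccne2 measured 3.98, 4.25 and 4.52 CPM and then 4.21, 4.40 and 4.73 CPM. Its interval was narrower, from -0.22 to 0.35 (estimate 0.07, edgeR adjusted p = 0.70), and the signs of both E-type cyclins turned with library sizes alone as scaling. Of the 13426 bases of Ccne2, 5622 overlap Ints8, so reads of the 2 genes may not be told apart. Ints8 was more abundant than Ccne2 and rose after stretch (log2 fold change 0.35), from a mean of 41.3 to 52.6 CPM. The part of Ints8 reads in the Ccne2 values was not tested.

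E2f1, an E2F that activates S-phase genes (chromosome 2, 154559639 to 154569852), fell 1.38-fold. It had 7.40, 7.55 and 6.67 CPM in control and 4.81, 5.36 and 5.48 CPM in stretch libraries (log2 -0.47 ± 0.11, edgeR adjusted p = 0.00946), and the groups did not overlap. E2f2, its close relative, was the least abundant of the 45 genes per length, with 14, 6 and 6 counts in control and 17, 38 and 8 in stretch libraries. The CPM values of E2f2 were 0.237, 0.119 and 0.112 and then 0.305, 0.560 and 0.142, which overlap, and the estimate of 1.10 ± 0.59 did not pass (edgeR adjusted p = 0.165). E2f3, placed with the further E2F genes below, rose.

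Origin licensing loads the Mcm2 to Mcm7 helicase onto DNA through the origin recognition complex (Orc1, Orc6) and the loaders Cdc6 and Cdt1. In this role 4 of 10 fell, 0 rose and 6 missed the threshold, against 22.6% of all genes that fell and 21.4% that rose, with a median log2 fold change of -0.26. Mcm4 (chromosome 16, 15623897 to 15637400) fell from 20.8, 21.5 and 19.5 CPM to 15.3, 16.7 and 16.0 CPM, 1.29-fold (log2 -0.37 ± 0.07, edgeR adjusted p = 0.00276). Mcm7 measured 17.9, 16.5 and 17.9 CPM in control and 13.8, 14.4 and 15.7 CPM in stretch libraries (log2 -0.25 ± 0.07, edgeR adjusted p = 0.0249). Mcm5 measured 7.74, 8.92 and 9.63 CPM and then 6.85, 7.17 and 7.02 CPM (log2 -0.32 ± 0.11, edgeR adjusted p = 0.0384). In each of these helicase subunits the stretch libraries lay below all controls. Orc6 was at 27.7, 25.0 and 25.9 CPM in control and 19.2, 23.8 and 22.0 CPM in stretch libraries, again without overlap (log2 -0.28 ± 0.08, edgeR adjusted p = 0.0281). The helicase did not move as a unit: Mcm6, per length its most abundant subunit, had a log2 fold change of 0.07 ± 0.05 with overlapping groups (edgeR adjusted p = 0.33), and its sign turned with library sizes alone. Mcm2 and Mcm3 did not pass (-0.28 ± 0.11 and -0.12 ± 0.05), and the loaders Cdc6 (-0.26 ± 0.28), Cdt1 (0.21 ± 0.11) and Orc1 (-0.10 ± 0.21) did not either.

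At the fork, Pcna, the clamp that holds DNA polymerases on the template (chromosome 2, 132249286 to 132253180), was the single gene that rose among the 20 replication genes. Its level was 96.1, 94.9 and 94.2 CPM in control and 112, 110 and 113 CPM in stretch libraries. The groups were tight and apart, a 1.17-fold increase (log2 0.23 ± 0.04, edgeR adjusted p = 0.00205). The reference name table lists 2 pseudogenes of Pcna, so some reads may be shared. Rfc3, a subunit of the complex that loads this clamp, fell from 8.20, 9.65 and 9.46 CPM to 6.60, 7.35 and 7.29 CPM (log2 -0.36 ± 0.10, edgeR adjusted p = 0.0211). Gins2, part of the active helicase, fell from 3.91, 4.07 and 4.17 CPM to 2.73, 3.42 and 2.99 CPM (log2 -0.41 ± 0.14, edgeR adjusted p = 0.0457). Neither gene's groups overlapped. Cdc45, another helicase component, had all stretch libraries under all control libraries without passing (log2 -0.43 ± 0.17, edgeR adjusted p = 0.0735). Mcm10, Gins1 and Rfc4 had estimates between -0.09 and -0.03 and overlapping groups.

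For deoxynucleotide supply, Rrm1, the large subunit of ribonucleotide reductase (chromosome 7, 102441695 to 102469771), fell 1.26-fold. It had 49.4, 45.6 and 45.9 CPM in control and 33.4, 40.7 and 37.7 CPM in stretch libraries (log2 -0.33 ± 0.08, edgeR adjusted p = 0.00745). The small subunit Rrm2, made mainly in S phase, was far lower, at 3.51, 4.01 and 3.31 CPM and then 2.78, 3.55 and 1.90 CPM. Its groups overlapped, and the log2 fold change of -0.39 ± 0.23 did not pass (edgeR adjusted p = 0.198). Thymidylate synthase, Tyms, had an estimate of 0.12 ± 0.08.

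The calls of Mcm4 and Rrm1 held when any single library was left out, as did those of Ccnd1, Ccnd2, Ccnd3, E2f1, Pcna and Mki67. The calls of 6 other genes did not: without control replicate 4 the edgeR adjusted p was 0.0647 for Orc6, 0.134 for Mcm5, 0.0759 for Mcm7, 0.127 for Gins2 and 0.0694 for Rfc3. Without stretch replicate 1 it was 0.0615 for Orc6, 0.0930 for Mcm5, 0.0823 for Mcm7, 0.110 for Gins2 and 0.0650 for Rfc3. Further losses followed without control replicate 2 (Orc6 0.107, Mcm7 0.0817, Gins2 0.0957), control replicate 3 (Mcm5 0.0957, Gins2 0.101, Rfc3 0.0719), stretch replicate 2 (Mcm5 0.0733, Mcm7 0.0685) and stretch replicate 4 (Orc6 0.0653, Mcm5 0.0857, Gins2 0.109). Over the 45 genes, the count of decreases was 6 without control replicate 4, 7 without control replicate 2, control replicate 3, stretch replicate 1 or stretch replicate 4, and 10 without stretch replicate 2. Mcm5 and Gins2 did not pass by DESeq2 or by edgeR's exact test either, and Gins2 did not with RLE factors or without the filter. Conversely, Mcm2 passed without stretch replicate 2 (edgeR adjusted p = 0.0222).

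Promoter letters, which the list did not use, were compared next. The E2F motif (TTTCCCGC, TTTCGCGC, TTTGCCGC or TTTGGCGC on either strand) was searched from 250 bases before to 50 bases after the RefSeq start (GRCm38.p6) in the 35 genes with an entry. Ccnd1, Ccnd2, Ccne2, Mcm4, Gins1, Gins2, Ccna2, Aurkb, Kif20a and Tpx2 had none. It was present in 8 of 17 replication genes (47.1%), in 1 of 14 mitosis genes (7.14%), and in 2.6% of all 27025 genes in the promoter table (4.53% of the 9952 that were also tested here). The 2 called replication genes with the smallest p that hold the motif are shown, because Rfc3 and Mcm7 both fell. Capitals mark the E2F motif, the CHR letters TTTGAA or TTCGAA, and CCAAT on either strand. Rfc3 lies at chr5:151651159-151651458 and Mcm7, at the upstream of its 2 listed starts, at chr5:138171834-138172133, both on the minus strand and printed 5′ to 3′ along the gene.
Rfc3: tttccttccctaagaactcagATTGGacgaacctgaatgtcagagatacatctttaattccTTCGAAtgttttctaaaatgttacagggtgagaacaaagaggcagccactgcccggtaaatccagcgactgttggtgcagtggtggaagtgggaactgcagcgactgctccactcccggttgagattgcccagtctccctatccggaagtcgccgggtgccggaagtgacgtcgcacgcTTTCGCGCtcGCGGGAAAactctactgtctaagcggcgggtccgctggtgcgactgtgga
Mcm7: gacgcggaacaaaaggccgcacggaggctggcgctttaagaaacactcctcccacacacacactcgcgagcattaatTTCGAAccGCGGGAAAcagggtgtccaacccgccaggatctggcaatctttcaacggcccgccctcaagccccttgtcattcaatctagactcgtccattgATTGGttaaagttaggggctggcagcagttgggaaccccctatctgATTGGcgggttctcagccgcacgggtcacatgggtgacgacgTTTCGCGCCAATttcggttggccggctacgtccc
Counting the start as 1, E2F letters began at -10 and 1 in Rfc3 and at -165 and 17 in Mcm7, where the last shares bases with a CCAAT. The median log2 fold change of replication genes was -0.18 for the 8 with it and -0.28 for the 9 without it, of which 3 and 2 fell.

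Few mitosis genes passed. In this group 2 of 18 fell (11.1%, against 22.6% of all genes), 0 rose and 16 did not pass. Estimates below 0 were found for 17 of 18, with a median log2 fold change of -0.32, and for 12 of 18, with a median of -0.11, without stretch replicate 4. Mki67, which encodes the Ki-67 protein of cycling cells (chromosome 7, 135689788 to 135716379), showed the largest decrease of the 45 genes. It fell 1.95-fold, from 12.9, 13.1 and 11.4 CPM to 6.42, 8.38 and 4.32 CPM, without overlap (log2 -0.96 ± 0.21, edgeR adjusted p = 0.00588). Stretch replicate 4 was lowest, and its removal left a log2 fold change of -0.75. Bub1b, a spindle checkpoint kinase (chromosome 2, 118598211 to 118641592), fell from 8.86, 9.25 and 8.35 CPM to 7.57, 7.26 and 6.76 CPM (log2 -0.29 ± 0.09, edgeR adjusted p = 0.0335). The Bub1b groups stayed apart, yet its edgeR adjusted p rose to 0.0898 and 0.103 without control replicates 2 and 3 and to 0.0704 and 0.0966 without stretch replicates 2 and 4, and it did not pass by DESeq2 or the exact test.

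Other genes of this kind were separated between groups without passing. Aurka, a centrosome kinase, was at 2.64, 3.86 and 3.38 CPM in control and 2.37, 2.52 and 1.65 CPM in stretch libraries (log2 -0.59 ± 0.22, edgeR adjusted p = 0.0572), and it passed by DESeq2. The kinetochore motor Cenpe was at 2.15, 2.16 and 2.45 CPM and then 1.90, 1.53 and 0.960 CPM (log2 -0.62 ± 0.26, edgeR adjusted p = 0.0865), and passed without stretch replicate 1 (edgeR adjusted p = 0.0310). Ccnb2, a mitotic cyclin, was at 1.59, 1.54 and 1.96 CPM and then 1.09, 1.37 and 1.12 CPM (log2 -0.51 ± 0.22, edgeR adjusted p = 0.0946). In all 3 genes each stretch library was below each control library, as in 29.2% of all genes tested and 6 of the 18 mitosis genes. Cdc20, the activator of the anaphase-promoting complex, had a log2 fold change of -0.36 ± 0.20 and passed without stretch replicate 2 (edgeR adjusted p = 0.0281). The exception in direction was Ccna2, the cyclin of S phase and G2, with 12.6, 15.2 and 15.1 CPM in control and 16.6, 16.6 and 15.5 CPM in stretch libraries. Its stretch libraries were all above the controls by a small margin (log2 0.18 ± 0.09, edgeR adjusted p = 0.131). The remaining estimates ran from -0.60 for Plk1 to -0.05 for Kif20a.

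Libraries of the same group differed more for mitosis genes than for replication genes. The median SD of log2 CPM between stretch libraries was 0.48 for mitosis genes, 0.11 for replication genes and 0.10 for all genes tested. Between control libraries it was 0.22, 0.10 and 0.09. Most of the mitosis genes were scarce, and the part of low counts in this spread was not tested. Stretch replicate 4 held the lowest stretch value for 17 of 18 mitosis genes, the exception being Ccnb2, and for 4 of 20 replication genes, against 32.0% of all genes tested. Relative to the control mean, the mitosis genes had a median log2 deviation of -1.05 in stretch replicate 4, -0.13 in stretch replicate 1 and 0.01 in stretch replicate 2. Control replicate 3 held the highest control value for 15 of 18 mitosis genes, against 33.3% of all genes tested, with a median deviation of 0.20 for the mitosis genes. Plk1, a central mitotic kinase shown here because it illustrates the spread, stood at 94, 95 and 87 counts in the control libraries and at 81, 99 and 25 in the stretch libraries, in the order of their numbers. The 25 counts came from stretch replicate 4. Scaled to library size, Plk1 was at 1.59, 1.88 and 1.63 CPM in control and 1.45, 1.46 and 0.445 CPM in stretch libraries. Each stretch library was thus below each control library, by a small margin in stretch replicates 1 and 2. Plk1 did not pass (log2 -0.60 ± 0.40, edgeR adjusted p = 0.264). Without control replicate 3, 13 of 18 mitosis genes had estimates below 0 and the median was -0.23. For the 20 replication genes the median was -0.26 with all libraries, -0.23 without stretch replicate 4 and -0.24 without control replicate 3. It was -0.18 without stretch replicate 1, the library with the lowest stretch value for 12 of the 20, against 34.9% of all genes tested.

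**Figure D3:**
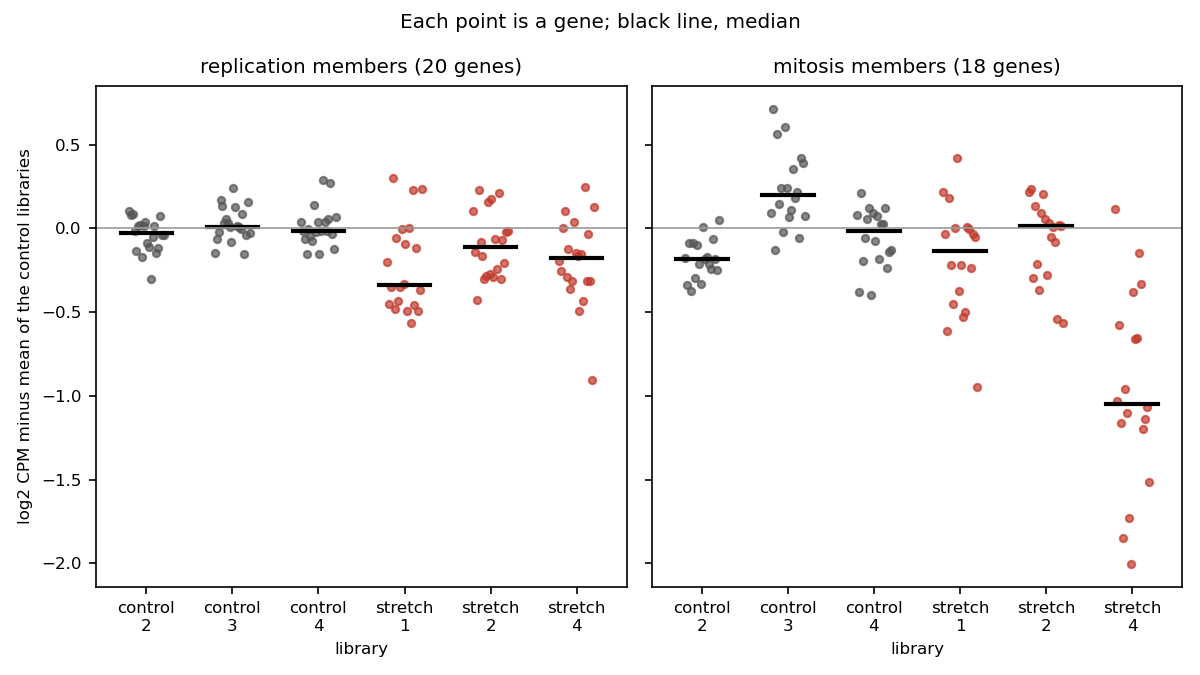
Log2 CPM of each gene minus its mean over the control libraries (vertical axis) in the 6 libraries, for 20 replication genes (left) and 18 mitosis genes (right), with a black line at the median. The mitosis genes sit lowest in stretch replicate 4, with a median of -1.05, and the replication genes lie between -0.34 and -0.11 in median in the 3 stretch libraries.

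In the promoters of the mitosis genes the CHR letters (TTTGAA or TTCGAA, either strand) were present in 11 of 14 genes (78.6%) and CCAAT in 13 of 14 (92.9%). Among replication genes the counts were 4 of 17 (23.5%) and 13 of 17 (76.5%). Among all genes with a promoter entry, 21.7% held the CHR letters and 41.1% CCAAT, and of those also tested here 16.2% and 42.6%. Mki67 (chr7:135716330-135716629, minus strand) and Bub1b (chr2:118597961-118598260, plus strand) are shown, since they are the mitosis genes that fell, with the same capitals as above.
Mki67: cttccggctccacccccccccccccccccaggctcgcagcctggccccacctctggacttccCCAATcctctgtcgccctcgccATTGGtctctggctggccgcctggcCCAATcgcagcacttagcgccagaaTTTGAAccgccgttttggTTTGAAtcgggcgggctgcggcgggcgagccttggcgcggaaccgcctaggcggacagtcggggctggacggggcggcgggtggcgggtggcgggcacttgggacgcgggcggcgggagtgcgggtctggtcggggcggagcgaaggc
Bub1b: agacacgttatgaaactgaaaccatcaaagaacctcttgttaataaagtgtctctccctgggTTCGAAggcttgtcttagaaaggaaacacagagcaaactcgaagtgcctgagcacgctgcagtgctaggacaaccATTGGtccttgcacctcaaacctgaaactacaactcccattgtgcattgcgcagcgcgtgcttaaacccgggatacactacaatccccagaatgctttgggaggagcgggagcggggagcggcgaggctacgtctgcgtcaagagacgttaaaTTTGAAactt
CHR letters began at -116 and -98 in Mki67, downstream of 3 CCAAT matches in either orientation, and at -188 and 41 in Bub1b. A match of letters is a description of these windows and does not show binding. The 11 mitosis genes with the CHR letters had a median log2 fold change of -0.40, and the 3 without them -0.28.

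Levels per length were low for most mitosis genes. In control libraries the 45 genes ranged from 71.9 ± 0.45 RPKM for Pcna to 0.031 ± 0.013 RPKM for E2f2 (SD, n = 3, the authors' RPKM). After Pcna and Ccnd3 came Mcm6 (21.9 ± 0.20) and Mcm3 (16.7 ± 0.39). The most abundant mitosis genes were Ccna2 (4.86 ± 0.57 RPKM) and Kif20a, a kinesin of cytokinesis (2.62 ± 0.39 RPKM), and the least abundant was Cenpf (0.103 ± 0.029 RPKM), a kinetochore protein. Ccna2 shares 863 of its 7132 bases with Exosc9 (48.99 CPM in control), and Kif20a shares 1595 of its 8654 bases with Cdc23 (46.2 CPM) and 187 with Brd8 (48.4 CPM). These same 2 genes deviated least in stretch replicate 4, by 0.12 and -0.15 on the log2 scale, and the part of reads from the neighbours was not tested.

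**Figure D4:**
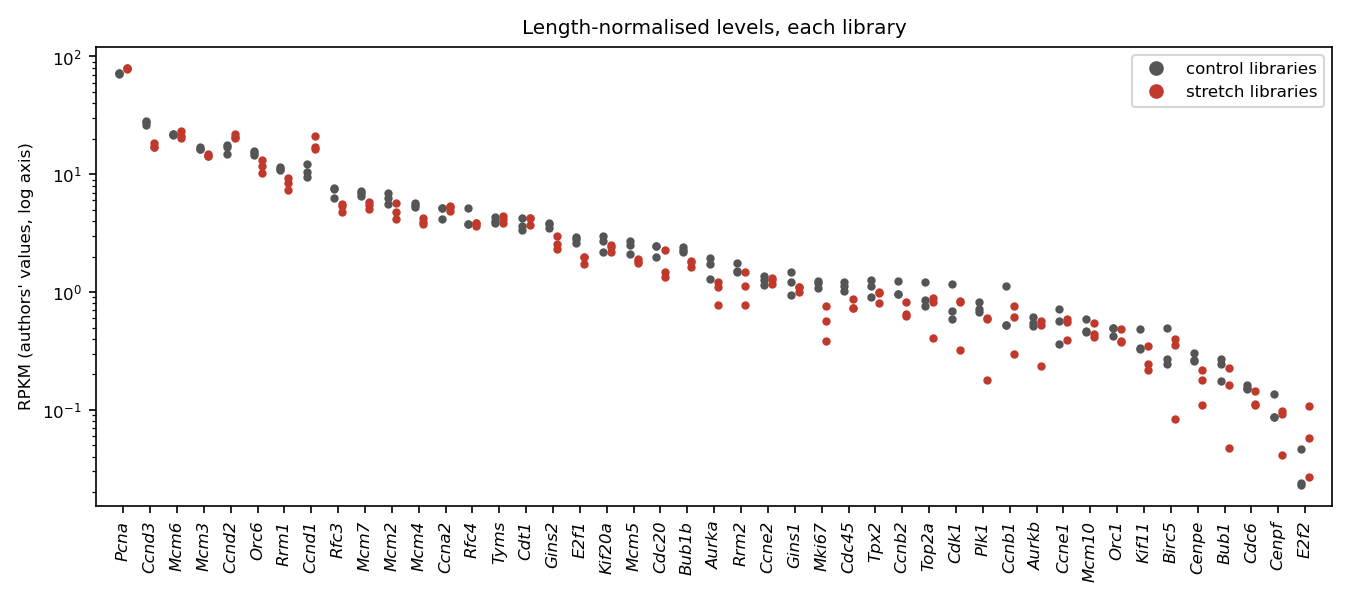
The authors' RPKM (vertical log axis) of the 45 genes in each library, ordered by their control mean, with control libraries in grey and stretch libraries in red. Pcna is highest and E2f2 lowest, and Ccnd3 lies above Ccnd1 and Ccnd2 in control libraries and below Ccnd2 in stretch libraries.

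Of 17 further E2F and pocket protein genes 4 rose (23.5%), 5 fell (29.4%) and 8 did not pass, shares near the 21.4% and 22.6% of all genes. All 3 pocket protein genes, whose products hold E2F in check, were among those that fell: Rbl2 from 48.8 ± 2.94 to 26.2 ± 2.48 CPM (log2 -0.90 ± 0.08, edgeR adjusted p = 9.76e-05), Rb1 from 145 ± 11.0 to 105 ± 7.25 CPM (log2 -0.47 ± 0.07), and Rbl1 (log2 -0.68 ± 0.12). The others that fell were Tfdp2, a dimer partner of E2F (log2 -1.12 ± 0.12), and the repressor E2f7 (log2 -1.22 ± 0.21). E2f3 rose 1.31-fold, from 27.7 ± 1.09 to 36.3 ± 2.04 CPM (log2 0.39 ± 0.06, edgeR adjusted p = 0.00116), and passed under each of the 17 alternative settings. The role of E2F activators above held only E2f1 and E2f2, so E2f3 was counted here. It was more abundant in CPM than E2f1 and went the other way, as E2f1 fell from a mean of 7.21 to 5.22 CPM. E2f4, E2f5 and E2f6 also rose (log2 0.23, 0.22 and 0.36). The call of E2f4 was lost without control replicate 2 or stretch replicate 4 (edgeR adjusted p up to 0.0638), and that of E2f5 without any single library except control replicate 3 (up to 0.122), and both were lost with library sizes alone. Foxm1 and Mybl2, regulators of mitotic genes, did not pass (-0.15 ± 0.12 and -0.16 ± 0.22). Rbl1, E2f4, E2f5, E2f6 and E2f7 are named after their values were seen.

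Of 16 G1 kinases and CDK inhibitors 4 rose (25.0%), 5 fell (31.2%) and 7 did not pass, against 21.4% and 22.6% of all genes. Cdk6, a partner of the D-type cyclins (chromosome 5, 3344312 to 3522225), rose 3.06-fold, from 4.03, 4.73 and 3.68 CPM to 15.5, 10.03 and 12.5 CPM (log2 1.61 ± 0.17, edgeR adjusted p = 0.000197). The alternative partner Cdk4 was far more abundant at 295 ± 6.14 and 310 ± 7.74 CPM and did not pass (log2 0.07, 95% interval -0.03 to 0.17, edgeR adjusted p = 0.205), and its sign turned with library sizes alone. The inhibitor Cdkn1a, known as p21 (chromosome 17, 29090986 to 29100722), rose from 1049, 1045 and 988 CPM to 1343, 1354 and 1548 CPM (log2 0.46 ± 0.07, edgeR adjusted p = 0.00079). Cdkn1b, known as p27, fell from 54.8, 50.2 and 47.1 CPM to 26.5, 35.99 and 27.9 CPM (log2 -0.75 ± 0.11, edgeR adjusted p = 0.00106). Cdkn2c, an inhibitor of Cdk4 and Cdk6, fell 2.15-fold from 4.60 ± 0.62 CPM. For each of these 4 called genes the groups did not overlap. The other genes that rose were Cdkn2b and Ccnh (log2 0.30 and 0.29), whose calls were lost with library sizes alone, and the others that fell were Cdk2, Cdkn1c and Cdkn2d (log2 -0.35, -0.59 and -0.99), named after their values were seen.

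**Figure D5:**
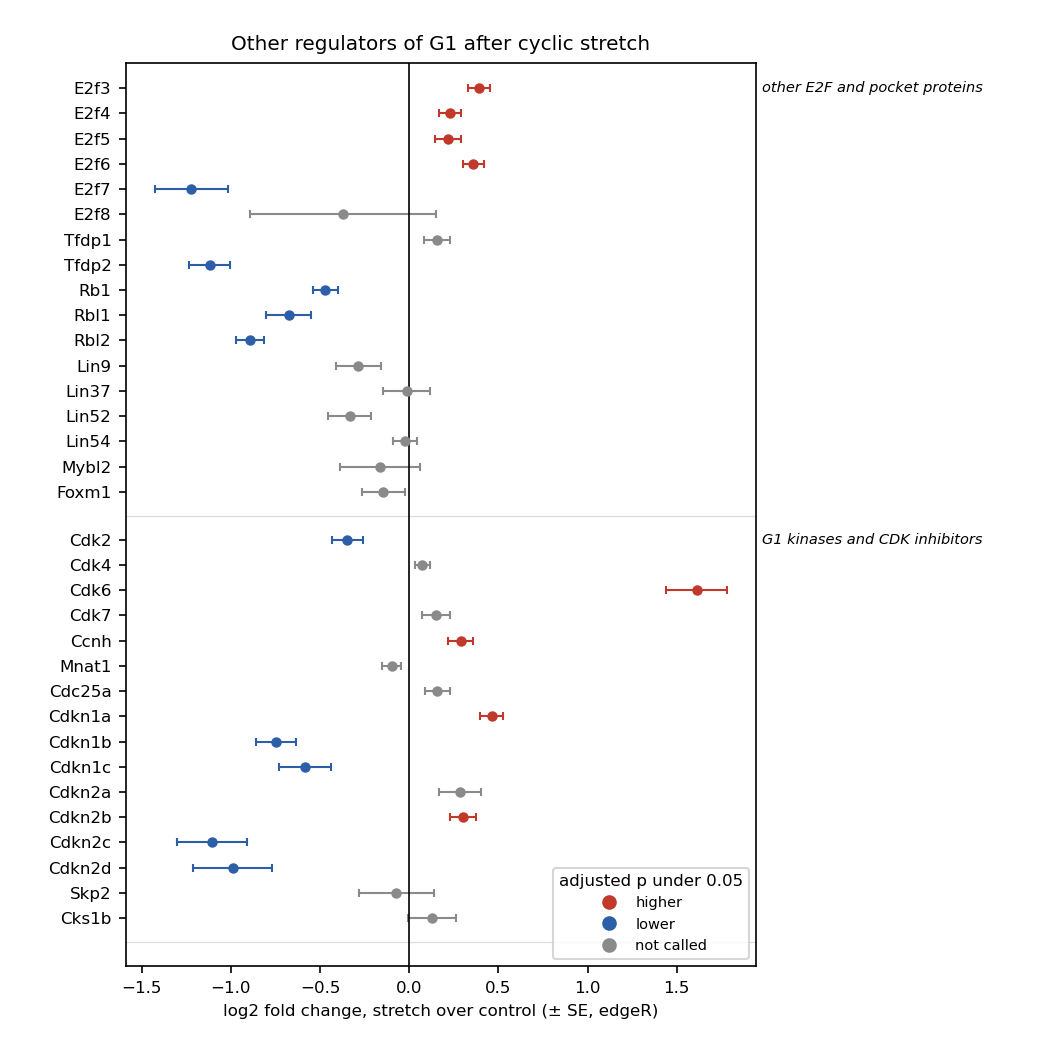
Log2 fold change of stretch over control with its SE (horizontal axis, edgeR) for 17 further E2F and pocket protein genes and 16 G1 kinases and CDK inhibitors, coloured by call. Cdk6 lies farthest right at 1.61 and E2f7 farthest left at -1.22, and Rb1, Rbl1 and Rbl2 all lie left of 0.

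Among 42 other replication genes there were 14 that fell (33.3%, against 22.6% of all genes), 2 that rose (4.76%, against 21.4%) and 26 that did not pass. Estimates below 0 were found for 34 of them (81.0%, against 51.7% of all genes), with a median log2 fold change of -0.20. Stretch replicate 1 held the lowest stretch value for 26 of the 42 (61.9%, against 34.9% of all genes). Without that library 29 had estimates below 0, the median was -0.15 and 11 fell. Timeless, a fork protection protein, fell 1.74-fold from 10.4 ± 0.18 to 5.999 ± 0.44 CPM (edgeR adjusted p = 0.000299). DNA ligase 1 (Lig1) fell 1.47-fold, the maintenance methyltransferase Dnmt1 1.49-fold, and the chromatin assembly subunit Chaf1a 1.55-fold. The 2 that rose were Orc4 and the polymerase subunit Pold3 (log2 0.25 and 0.24), named after their values were seen, and the call of Pold3 was lost with library sizes alone. Among 63 other mitosis genes there were 13 that fell (20.6%, near the 22.6% of all genes), 3 that rose (4.76%) and 47 that did not pass. Estimates below 0 were found for 54 of them (85.7%), with a median of -0.32. Stretch replicate 4 held the lowest stretch value for 46 of the 63 (73.0%, against 32.0% of all genes), and without it 47 had estimates below 0 and the median was -0.16. Incenp, the scaffold of the Aurora B complex, fell 1.47-fold and the condensin subunit Ncaph 1.60-fold. Those that rose were Wee1, the kinase that restrains Cdk1 (6.21 ± 0.46 to 11.1 ± 1.21 CPM, log2 0.83 ± 0.11, edgeR adjusted p = 0.000566), Ube2s, which works with the anaphase-promoting complex (log2 0.31 ± 0.05), and Cks2, a Cdk1 subunit named after its value was seen (log2 0.46 ± 0.11).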

How the data were processed

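The authors deposited, for each of 6 libraries, raw counts of 23337 genes and length-normalised RPKM values of 23336 genes. Per the submitters' processing notes the tools were edgeR, featureCounts and TopHat2 2.1.0, and the build was GRCm38 (mm10). The sources used here do not state which tool made which values, the annotation or the strand setting. Reads of overlapping genes may therefore be mixed, and 12 of the 45 genes overlap another listed gene. The authors' deposited table also holds log2 fold changes with mean log2 CPM, a likelihood ratio score and, per the file headers, the p-value and FDR of each gene. Per library, 67.25% to 69.85% of the counts from 1 to 10 were even numbers, and 49.63% to 50.87% of those from 1000 up.

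The counts went into edgeR 4.0.16 (R 4.3.3) with TMM scaling, its default low-count filter (filterByExpr) and the quasi-likelihood F test between groups. Log2 CPM used a prior count of 2. Benjamini-Hochberg adjustment ran over 14222 genes, and adjusted p under 0.05 made a call, whatever the fold. The SE equals the absolute log2 fold change over the root of F. The steps were tested on simulated data. The members and lists were chosen with earlier results of these data known. All 45 genes could be named. Values in every library were set for the 7 G1 regulators and, per role, for up to 4 called genes with the smallest p, or the 2 with the smallest p where fewer than 2 were called. From each other pathway list up to 4 called genes with the smallest p were named, plus Rb1, Cdk4, Cdk6, Cdkn1a, Cdkn1b, Foxm1 and Mybl2. Other settings comprised RLE factors, upper-quartile factors, scaling by library size alone, no filter, 1 CPM in 3 libraries, DESeq2 1.42.0, limma-voom (limma 3.58.1), the exact test, robust dispersion, a minimum of 1.2-fold, a block for the replicate number, and leaving out single libraries. Promoter sequences are from RefSeq (GRCm38.p6).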

Additional observations from a re-analysis of the deposited data

How the results depend on the processing

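The 3 increases among the 45 genes were called in each alternative except with a minimum of 1.2-fold, where 2 were. The count of decreases, 11, became 2 with a minimum of 1.2-fold, where 2537 of all genes were called instead of 6261, and lay between 6 and 10 when single libraries were left out. With the replicate number as a block 6 genes fell (Ccnd3, Orc6, Mcm4, Rrm1, Cenpe and Mki67), and E2f1 did not pass (log2 fold change -0.38, edgeR adjusted p = 0.0751). No label ties the shared numbers 2 and 4 to a common isolation, so this fit is given as a description. The deviations of same-numbered libraries correlated at 0.212 and 0.114 across 14222 genes, and those of differently numbered libraries at -0.204 to 0.18. With the block, 30 of the 38 replication and mitosis genes had estimates below 0, with a median of -0.25. The median was -0.18 for the replication genes and -0.31 for the mitosis genes. Genes that were not called changed sign as follows. With library sizes alone the log2 fold change was -0.10 for Ccne1, -0.027 for Ccne2, -0.024 for Mcm6 and -0.019 for Cdk4. Ccne1 was at -0.013 with upper-quartile factors. With the block it was -0.0535 for Ccne1, 0.13 for Mcm10, 0.00071 for Ccnb1 and 0.025 for Kif20a. With single libraries left out the ranges crossed 0 for Ccne1 (-0.21 to 0.22), Mcm10 (-0.13 to 0.10), Gins1 (-0.23 to 0.067), Rfc4 (-0.16 to 0.061), Ccnb1 (-0.54 to 0.18), Cdk1 (-0.42 to 0.12), Aurkb (-0.45 to 0.046), Birc5 (-0.52 to 0.26) and Kif20a (-0.15 to 0.047). The cause was not tested. The mitosis genes, most of them scarce, had a median SE of 0.26, against 0.11 for replication genes and 0.09 for all genes tested.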

Other observations

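Of the 45 genes, the authors' deposited table has 3 higher and 6 lower at an FDR under 0.05, where 12.3% and 12.2% of its 23336 genes were. Those shares include genes too scarce to be tested here, whereas all 45 genes were tested, so the sets are unlike. Mcm5, Mcm7, Gins2, Rfc3 and Bub1b, which fell by the quasi-likelihood test, had FDR values of 0.105, 0.0566, 0.158, 0.0504 and 0.115 in the authors' deposited table.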
